A study of Mus musculus with 3 samples.

Results

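The contactins and the contactin-associated proteins are adhesion molecules of the nervous system, and 10 of their genes were followed here through differentiated neurosphere cultures with and without the lysine acetyltransferases CBP or p300. The genes were chosen by symbol: Cntn1, Cntn2, Cntn3, Cntn4, Cntn5, Cntn6, Cntnap2, Cntnap4, Cntnap5a and Cntnap5b, which are 10 of the 30559 genes in the deposited matrices. All 10 were found and all 10 had UMIs (unique molecular identifiers, one for each captured RNA molecule) in each library. Neurospheres, floating aggregates of neural stem cells, were grown from the subventricular zone of newborn mice, and nuclei were taken from differentiated cultures at 15 days in vitro. The group labelled control was infected with a lentivirus for red fluorescent protein, and the mouse line it came from is not stated. CBPf/f cultures carried floxed Crebbp alleles and p300f/f cultures floxed Ep300 alleles, and both received a lentivirus for Cre fused to mCherry. The labels name tamoxifen for all 3 groups, whereas the methods describe lentiviral Cre. Each group is 1 library from about 15 pooled cultures, with 16000 sorted nuclei loaded, so condition and library cannot be told apart, nuclei are not replicates, and no test between conditions was made.

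Contactins are immunoglobulin-like proteins held on the outer membrane by a lipid anchor, and they bind partners on the same cell, on neighbouring cells and in the matrix. Contactin-associated proteins cross the membrane and resemble neurexins, and the product of Cntnap2 gathers potassium channels beside the node of Ranvier together with contactin-2. Contactin-1 serves at the junction between axon and myelin and is also made by oligodendrocyte precursors, while contactins 3 to 6 and the later Cntnap genes are known mainly from studies of neuronal wiring.

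The 10 genes are long, and reads were counted over introns and exons. By GENCODE M21 on GRCm38 their spans run from 33.8 kb for Cntn2 (chr1:132509427-132543256, minus strand) to 2245 kb for Cntnap2 (chr6:45059357-47304213, plus strand). Cntn3 (chr6:102162655-102573101, minus), Cntn4 (chr6:105677660-106699310, plus) and Cntn6 (chr6:104492790-104863406, plus) lie on the same chromosome as Cntnap2. Cntn1 spans chr15:92051165-92341967 on the plus strand and Cntn5 chr9:9660891-10904775 on the minus strand. Cntnap4 lies at chr8:112570043-112882717, Cntnap5a at chr1:115684756-116587323 and Cntnap5b at chr1:99772765-100485942, all on the plus strand. Cntn3, Cntn5 and Cntnap4 each overlap 1 other counted gene, and Cntnap5a, Cntnap5b and Cntnap5c are close paralogs, so how reads were divided there is uncertain.

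RefSeq windows upstream of a transcript start were found for 8 of the 10 genes, with none for Cntnap4 or Cntnap5a. In all, 4 sets of letters were searched on both strands in the 250 bases before each start: the cyclic AMP response element TGACGTCA, after whose binding protein CBP is named, its shorter core TGACG (which the full element contains), the GC box GGGCGG and the SOX core ACAAAG. Of 32851 windows of that length in the table, 1.55% hold the full element, 17.8% the shorter core, 32.7% the GC box and 16.5% the SOX core. The windows below belong to Cntn1, the most abundant member, and to Cntn3, Cntn4 and Cntnap5b, 3 further members whose first windows overlap no exon. Capitals mark GC boxes.
Cntn1: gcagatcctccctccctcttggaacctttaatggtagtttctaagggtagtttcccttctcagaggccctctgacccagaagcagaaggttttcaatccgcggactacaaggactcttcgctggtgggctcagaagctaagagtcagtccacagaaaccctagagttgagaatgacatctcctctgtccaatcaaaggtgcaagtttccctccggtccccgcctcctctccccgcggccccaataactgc
Cntn3: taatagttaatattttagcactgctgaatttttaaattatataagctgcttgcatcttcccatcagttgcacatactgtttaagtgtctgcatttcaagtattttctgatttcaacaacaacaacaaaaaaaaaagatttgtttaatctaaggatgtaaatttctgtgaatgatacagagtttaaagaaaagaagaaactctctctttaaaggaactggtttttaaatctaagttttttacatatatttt
Cntn4: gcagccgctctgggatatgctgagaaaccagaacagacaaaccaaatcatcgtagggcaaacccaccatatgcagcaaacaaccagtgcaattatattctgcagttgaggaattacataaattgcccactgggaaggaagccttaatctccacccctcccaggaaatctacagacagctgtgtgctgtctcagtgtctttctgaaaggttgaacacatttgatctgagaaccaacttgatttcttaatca
Cntnap5b: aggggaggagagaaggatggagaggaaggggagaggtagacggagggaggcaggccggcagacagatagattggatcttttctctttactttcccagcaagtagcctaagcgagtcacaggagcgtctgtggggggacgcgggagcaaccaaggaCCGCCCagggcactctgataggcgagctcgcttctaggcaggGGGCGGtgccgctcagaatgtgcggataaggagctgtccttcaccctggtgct
The Cntn1 window (GRCm38.p6, chr15:92050915-92051164, plus strand) and the Cntnap5b window (chr1:99772151-99772400, plus) overlap no annotated gene body. The Cntn3 window (chr6:102464668-102464917, minus) and the Cntn4 window (chr6:106118515-106118764, plus) fall in introns of longer GENCODE models of the same genes, and RefSeq holds a second start for Cntn4 and 2 more for Cntn1. GC content is 26.4% for Cntn3, 44.4% for Cntn4, 53.6% for Cntn1 and 60% for Cntnap5b, beside a median of 52.4% over all windows. Cntnap5b holds 2 GC boxes, and none of the 4 sets of letters is present in the other 3 windows. The shorter core is present in the window of Cntn6, which lies within an exon, and in that of the second Cntn1 start. A GC box is present in the first Cntnap2 window and in the second Cntn5 window. None of these windows is printed, although the first windows of Cntnap2 and Cntn5 also overlap no exon.

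The control library holds 4884 nuclei and 16312170 UMIs, the CBPf/f library 3017 nuclei and 12748336 UMIs, and the p300f/f library 4648 nuclei and 18876682 UMIs. Median UMIs per nucleus were 3219, 4016 and 3902.5, and 1 to 7 barcodes were shared between any 2 libraries. Crebbp stood at 335, 369.5 and 365 CPM (UMIs of a gene per 1000000 UMIs of the same nuclei) and Ep300 at 114, 136 and 115 CPM in control, CBPf/f and p300f/f. Sums over introns and exons are not restricted to the floxed exons, so these values do not check the labels. Nuclei were clustered without the contactin family, and 10 of 12 clusters took a name from marker lists, each with all of its listed markers. Sizes in control, CBPf/f and p300f/f were 1045, 389 and 1769 for NPC/OPC-like nuclei (neural and oligodendrocyte progenitors), 391, 300 and 518 for cluster-5-like, 420, 609 and 236 for committed oligodendrocyte precursor-like and 161, 486 and 193 for oligodendrocyte-like nuclei. The 1278 astrocyte-like nuclei were all in the control library. Cluster-5-like nuclei carry the markers of the study's cluster 5 (Kcnj6, Nell2 and others), which the study called immature neurons. In these nuclei the 8 NPC/OPC markers summed to 24930 CPM, against 32930 in NPC/OPC-like and 7685 in neuron-like nuclei. The 7 neuronal markers summed to 1066 CPM in cluster-5-like, 1371 in NPC/OPC-like and 16590 in neuron-like nuclei. The cluster-5 markers summed to 3633 CPM in cluster-5-like nuclei, against 2756 in NPC/OPC-like and 2835 in proliferating-like nuclei. The NPC/OPC-like cluster also met the naming rule for cluster-5.

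Taken over whole libraries, contactin RNA was mostly Cntn1. The 10 genes summed to 1527 CPM in control, 1523 in CBPf/f and 1963 in p300f/f, and Cntn1 gave 66.8%, 63.1% and 66.6% of those UMIs. Cntn1 itself stood at 1019 CPM in control (95% exact Poisson interval 1004 to 1035), 960.5 in CBPf/f and 1308 in p300f/f. All intervals here cover counting error only, and the variation between cultures is not in them. Per 100 kb of gene, the control level was 350.5 CPM for Cntn1, 20.2 for Cntn3, 19.6 for Cntn4, 11.6 for Cntn2, 11.0 for Cntn6 and 5.04 for Cntnap5b. The other 4 lay between 2.29 for Cntnap5a and 3.39 for Cntnap2. In this order Cntn3 and Cntn4 were close to each other, as were Cntn2 and Cntn6.

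**Figure D1:**
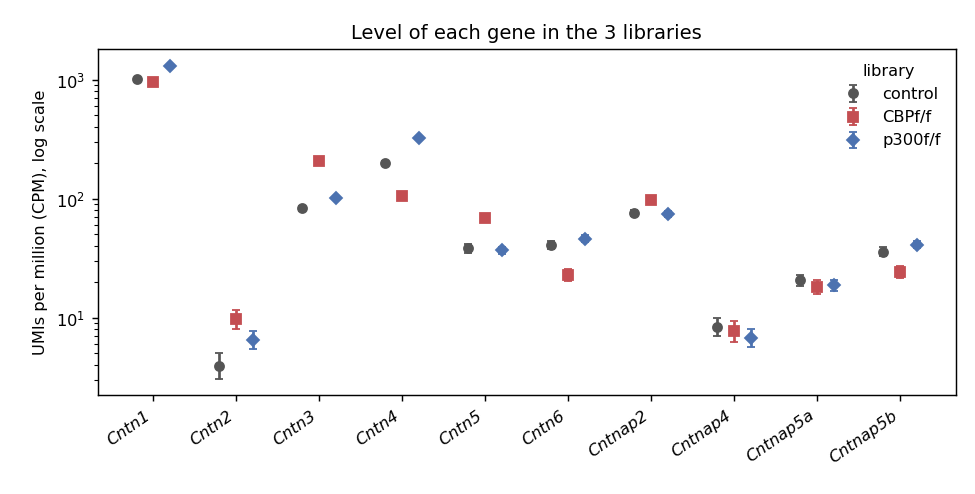
Level of each of the 10 genes in the control, CBPf/f and p300f/f libraries in CPM on a log axis, with 95% Poisson intervals for counting error. Cntn3 stood at 209 CPM in CBPf/f against 82.8 in control, Cntn4 at 106 against 201, and Cntnap4 and Cntnap5a had overlapping intervals in all 3 libraries.

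A gene was called past 2-fold when its ratio to control was 2 or more in either direction, provided that control and the ablated library together held 100 UMIs of it. In the whole CBPf/f library 2 of 10 members were past 2-fold higher and none lower, where 2.89% of all 11883 tested genes were higher and 3.99% lower. These were Cntn3, with 82.8 CPM in control, 209 in CBPf/f and 101 in p300f/f, and Cntn2, with 3.92, 9.73 and 6.52 CPM. Their log2 ratios of CBPf/f to control were 1.33 (95% interval 1.24 to 1.43) and 1.31 (0.86 to 1.77). Both genes are most abundant in oligodendrocyte-like nuclei, which were 3.30% of nuclei in control and 16.1% in CBPf/f. Cntn4 was lower in CBPf/f (200.6, 106 and 324 CPM in the 3 libraries, log2 ratio −0.92), as were Cntn6 (40.8, 22.8 and 46.1 CPM, −0.84) and Cntnap5b (35.9, 24.1 and 41.2 CPM, −0.58). Cntn5 was higher (38.2, 68.1 and 36.7 CPM, 0.83), and neuron-like nuclei were 2.09% of the control, 5.60% of the CBPf/f and 1.87% of the p300f/f library. In p300f/f no member was past 2-fold, where 2.12% of 12247 genes were lower and 0.694% higher. The widest p300f/f differences were those of Cntn2 (log2 ratio 0.73, interval 0.28 to 1.19) and Cntn4 (0.69, 0.63 to 0.75).

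Cell composition moved with these whole-library values. Over the 9 named classes present in both libraries alone, without the astrocyte-like and unnamed nuclei, the CBPf/f log2 ratio was 0.94 for Cntn2, 1.01 for Cntn3, −1.32 for Cntn4 and −1.15 for Cntn6. When each of these classes was then given the share it has in control, the ratios were −0.22, 0.24, −0.69 and −0.90, and no member was past 2-fold. The share of all genes past 2-fold with these weights is not given, so the count does not set the members apart from other genes. Cntnap5b went from −0.88 to −0.65 and Cntn5 from 0.64 to 0.24 with the weights. Cntnap2 changed sign, from 0.346 in the whole library and 0.105 over the 9 classes to −0.328 with the weights. Without the astrocyte-like nuclei only, control Cntn4 was 255 CPM and control Cntn6 49.8 CPM, and their CBPf/f log2 ratios were −1.26 and −1.13. In p300f/f Cntn4 was at 0.69 in the whole library, 0.31 over the 9 classes and 0.13 with the weights, and Cntn1 at 0.36, 0.21 and 0.09.

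Cntn1, the contactin of axon and glial junctions, was present in every named class. Averaged over the 3 libraries it was highest in NPC/OPC-like nuclei at 1864 CPM (lowest library 1674, highest 1985), followed by proliferating-like nuclei at 1786 CPM (1764 to 1811) and cluster-5-like nuclei at 1690 CPM (1359 to 2170). The ranges of these 3 classes overlap, so their order is within the spread of the libraries. Neuron-like nuclei came next at 845 CPM (721 to 970). Among nuclei thinned to 1500 UMIs, 89.0% of control NPC/OPC-like nuclei held a Cntn1 UMI, with 83.5% in CBPf/f and 89.4% in p300f/f. Astrocyte-like nuclei, present in control only, held 679 CPM of Cntn1, whereas no other member passed 35.2 CPM (Cntnap2) there. The share with a Cntn1 UMI after thinning was 15.6% to 21.7% in microglia-like nuclei, which are not known for contactins, and serves as a rough background. It rests on 64 control, 23 CBPf/f and 30 p300f/f nuclei, and the CBPf/f interval reaches 43.7%. Called doublets held 8 of 46, 10 of 41 and 9 of 44 Cntn1 UMIs of all microglia-like nuclei. Microglia-like nuclei had a median of 1152.5 UMIs, against 3539 in NPC/OPC-like nuclei.

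Cntn3 and Cntn2 were both highest in oligodendrocyte-like nuclei, and Cntn3 extended further into committed precursor-like nuclei. Cntn3 stood in oligodendrocyte-like nuclei at 353 CPM in control, 469 in CBPf/f and 403 in p300f/f, and in committed precursor-like nuclei at 195, 336 and 169.5 CPM. Oligodendrocyte-like nuclei gave 22.2% of the Cntn3 UMIs of control, 52.0% of CBPf/f and 25.0% of p300f/f, while the share of precursor-like nuclei was 25.0%, 35.7% and 10.4%. The largest share in p300f/f, 30.7%, came from NPC/OPC-like nuclei, which are more numerous but lower in Cntn3. Cntn2, which encodes a contactin of the zone beside the node found on both axon and myelinating glia, was far more restricted, with 71.9%, 83.9% and 65.0% of the UMIs of the 3 libraries from oligodendrocyte-like nuclei. There it stood at 54.1 CPM in control, 35.3 in CBPf/f and 67.4 in p300f/f, from 46, 104 and 80 UMIs. Outside that class its highest mean was 6.94 CPM, in neuron-like nuclei, from 2 or 3 UMIs a library.

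A finer clustering (resolution 1.2 instead of 0.6), made separately so that its clusters need not lie within one class, placed nearly all oligodendrocyte-like nuclei in cluster 10, whose leading genes include Prr5l, Aspa, Hapln2 and Mog, and cluster 15, led by Thsd4 with Mobp, Adamts4 and Mag. Cntn2 lay almost entirely in the first of these. Cluster 10 held 44, 104 and 79 Cntn2 UMIs in control, CBPf/f and p300f/f, or 75.5, 59.8 and 81.2 CPM. Cluster 15 held 2, 0 and 1, and the 0 of CBPf/f, at 206 nuclei, allows up to 2.44 CPM. Cluster 15 was 49 control, 206 CBPf/f and 34 p300f/f nuclei beside 112, 283 and 159 in cluster 10. Within cluster 10 the CBPf/f log2 ratio of Cntn2 was −0.34 (interval −0.86 to 0.21), against −0.62 (−1.13 to −0.09) over all oligodendrocyte-like nuclei.

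The members differed in how they were spread over the clusters with oligodendrocyte lineage markers. From the larger NPC/OPC-like cluster (0), through precursor-like clusters with Gpr17 (9) and with Enpp6 (7), to the oligodendrocyte-like clusters 15 and 10, control Cntn3 stood at 68.1, 162, 246, 311 and 372 CPM. Control Cntn4 was highest at the other end, at 400.3, 137, 37.4, 93.7 and 32.6 CPM. Cntn6, a contactin known from neuronal development, was highest of these 5 in the Gpr17 cluster, at 83.0 CPM in control, 59.7 in CBPf/f and 62.7 in p300f/f, and stood at 1.72, 6.32 and 13.4 CPM in cluster 10. Cntn1 did not follow one direction, since control values were 1934, 705, 622, 1181 and 329 CPM, with cluster 15 above its neighbours in all 3 libraries. The clusters are placed by known marker genes, and the order is not a measured time course.

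**Figure D2:**
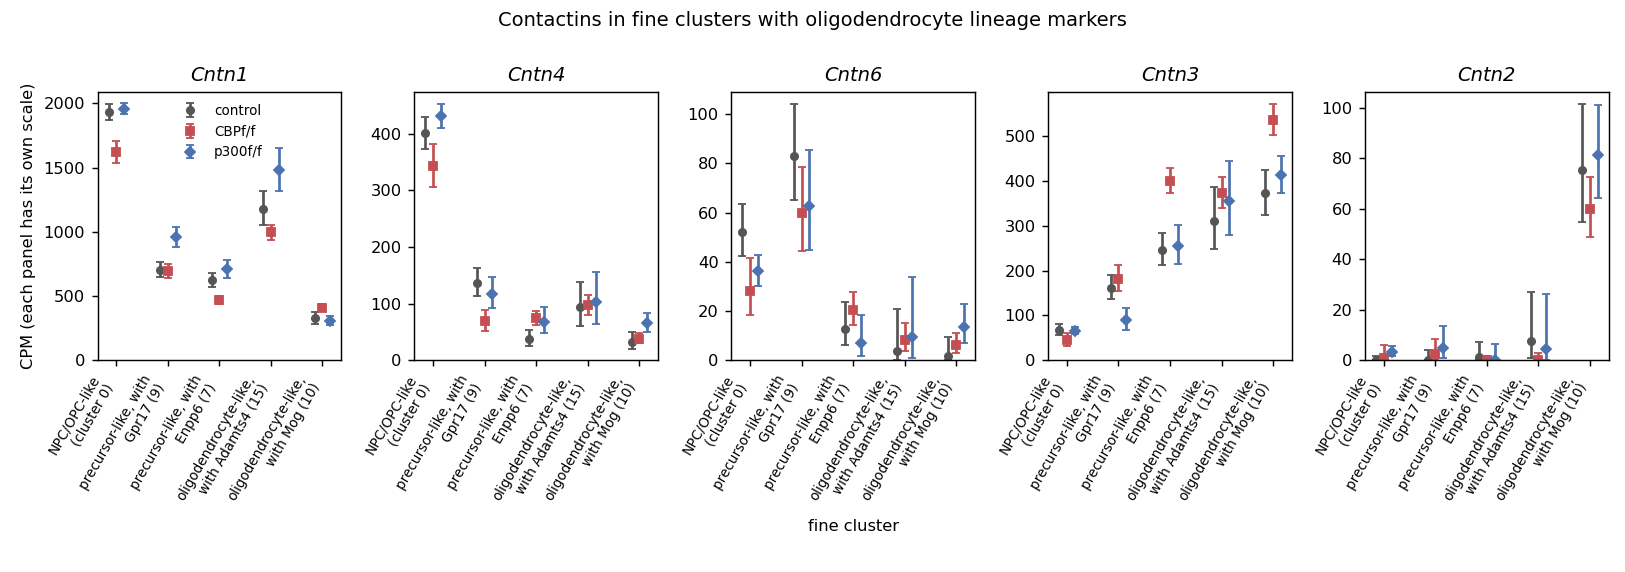
Level in CPM, with 95% Poisson intervals, of 5 contactins in 5 fine clusters ordered by markers of the oligodendrocyte lineage, for the control, CBPf/f and p300f/f libraries. Control Cntn3 runs from 68.1 to 372 CPM and control Cntn4 from 400.3 to 32.6 CPM, while Cntn2 is near 0 except in cluster 10.

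Cntn4, Cntn6 and Cntnap5b shared the progenitor classes. Cntn4 stood in NPC/OPC-like nuclei at 532 CPM in control, 359.5 in CBPf/f and 542 in p300f/f, and in cluster-5-like nuclei at 461, 172 and 614 CPM. NPC/OPC-like nuclei gave 56.4%, 36.5% and 61.0% of its UMIs in the 3 libraries. Cntnap5b, a neurexin-like member of the Cntnap5 group, stood at 88.7, 46.6 and 63.1 CPM in NPC/OPC-like nuclei, which gave 52.6%, 20.8% and 55.9% of its UMIs, and Cntn6 at 74.3, 45.1 and 57.2 CPM. Cntn6 was more abundant in control and p300f/f cluster-5-like nuclei, at 109 and 120 CPM, than in CBPf/f ones, at 23.8 CPM. All 3 genes were low in RGC/PSC-like nuclei (radial glia and stem cells) and in glial progenitor-like nuclei, where Cntn6 and Cntnap5b stayed at or under 13.5 CPM in every library.

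Most NPC/OPC-like nuclei were in fine clusters 0 and 3. Cluster 3, with Tmem255b, Vcan and Cntn4 among its leading genes although Cntn4 took no part in the clustering, held 368 control, 42 CBPf/f and 727 p300f/f nuclei. Its Cntn4 level was 739, 749 and 687 CPM, against 400.3, 342.5 and 431 CPM in cluster 0, which held 621, 260 and 1009 nuclei. Cntn6 showed the same split, with 108, 136 and 83.6 CPM in cluster 3 and 52.2, 28.4 and 36.1 CPM in cluster 0.

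The neuron-like nuclei, 102 in control, 169 in CBPf/f and 87 in p300f/f, had UMIs of the most members per nucleus. Cntnap2, the potassium channel organiser, stood there at 1548, 1293 and 1266 CPM, more than 10 times its level in any other named class of the same library. Cntn5 stood at 534 CPM in control, 889 in CBPf/f and 528 in p300f/f, and its next class by mean, cluster-5-like, at 99.1, 83.3 and 86.7 CPM. Cntnap5a stood at 193, 214 and 223 CPM and Cntnap4, a Cntnap gene known from inhibitory neurons, at 99.8, 89.4 and 101 CPM. Without the 3 nuclei that held most, these levels were 69.8, 126 and 85.9 CPM for Cntnap5a and 56.8, 61.9 and 57.0 CPM for Cntnap4. Counting intervals of the 3 libraries overlapped for both genes over all neuron-like nuclei. Cntn6 (113, 72.6 and 79.3 CPM) and Cntnap5b (113, 194 and 171 CPM) were also highest there by mean, but for Cntn6 the cluster-5-like mean of 84.1 CPM was within the spread of the neuron-like libraries, whose mean was 88.2 CPM. Thinned neuron-like nuclei held a UMI of 2.23 members on average in control, 2.25 in CBPf/f and 2.39 in p300f/f, against 2.0, 1.58 and 1.71 in proliferating-like nuclei and 1.59, 1.28 and 1.81 in cluster-5-like nuclei. NPC/OPC-like nuclei held at most 1.75. RGC/PSC-like nuclei held 0.70, 0.76 and 0.73.

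**Figure D3:**
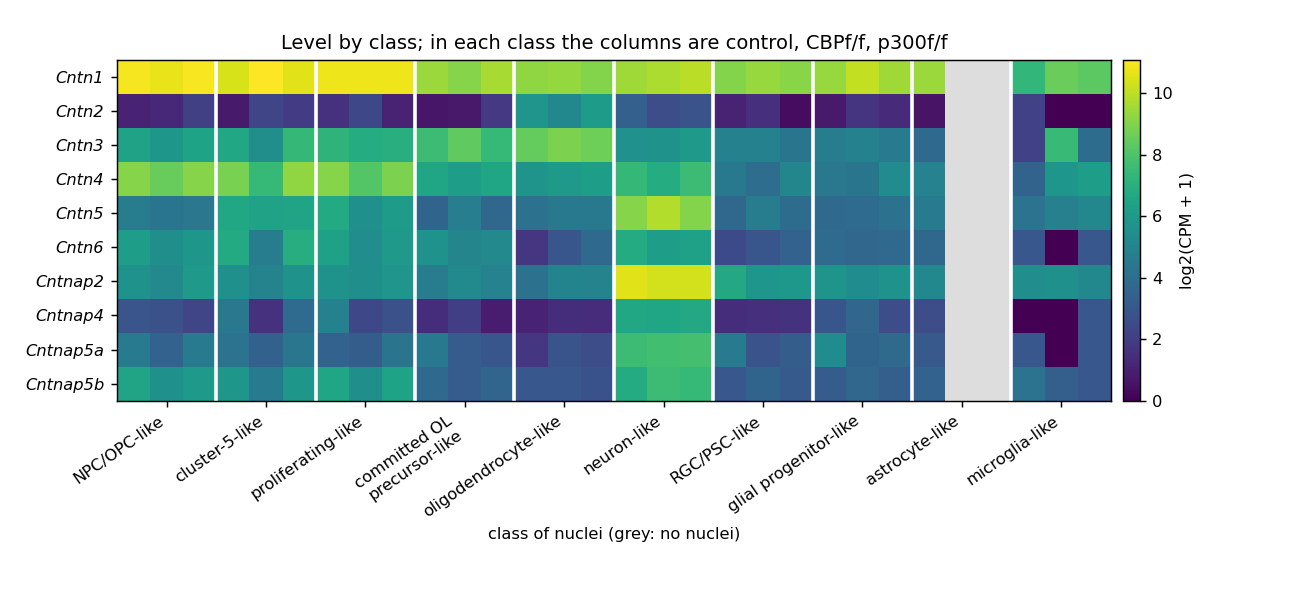
Level of the 10 genes as log2(CPM + 1) in 10 named classes, with control, CBPf/f and p300f/f as adjacent columns in each class and grey where a library has no nuclei. Cntn1 is high in the first 3 classes, Cntn2 and Cntn3 in oligodendrocyte-like nuclei, and Cntnap2 and Cntn5 in neuron-like nuclei, in all 3 libraries.

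The class of highest mean level was the same for 9 of the 10 members under 7 other ways of making classes or choosing nuclei. Cntn4 was the exception, since classes by marker score placed it first in cluster-5-like nuclei. In microglia-like nuclei, Cntn3 stood at 3.51 CPM in control and 175 in CBPf/f, from 1 and 19 UMIs. Of those 19 UMIs 13 were in 1 nucleus and 15 in 3 of the 76, and without these 3 nuclei the level was 38.9 CPM.

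Within classes, 36 pairs of member and class had at least 100 UMIs in control and CBPf/f together. Of these, 4 pairs were past 2-fold lower and none higher, where 1.66% of all 33729 gene and class pairs were lower and 1.17% higher. All 4 were in cluster-5-like nuclei, in which 4.95% of 3796 tested genes were lower and 2.92% higher. Cntn6 had 147 UMIs in 391 control and 24 in 300 CBPf/f nuclei, a log2 ratio of −2.19 (−2.88 to −1.56). Cntn4 had a ratio of −1.43 (−1.68 to −1.18), Cntnap5b of −1.32 (−2.06 to −0.63) and Cntn3 of −1.20 (−1.73 to −0.70). In the same nuclei Cntn1 was higher, at 2170 CPM against 1359 in control (0.68, 0.58 to 0.77).

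Control and CBPf/f contributed different nuclei to the cluster-5-like class. Fine cluster 6, led by Kcnj6, held 245 of the 391 control, 23 of the 300 CBPf/f and 460 of the 518 p300f/f nuclei of the class, and fine cluster 8, led by Gpr149, Syt1 and Ets1, held 141, 276 and 47. Fine cluster 6 met all 5 of the cluster-5 markers and fine cluster 8 met 3 of the 5. Fine cluster 8 also holds nuclei of other classes, so ratios were taken over the nuclei in both the class and the fine cluster. Cntn3 stood in control at 137 CPM in the nuclei of cluster 6 and 25.6 CPM in those of cluster 8. Its CBPf/f log2 ratio was −0.99 in the first (from 124 and 6 UMIs) and 0.69 in the second (from 11 and 38 UMIs), with intervals that held 0 in both. Cntn4 was lower in both, with −1.12 (−1.47 to −0.78) in the nuclei of cluster 8 and −0.71 (−1.32 to −0.15) in those of cluster 6. In the nuclei of cluster 8 Cntn6 was at −1.42 (−2.46 to −0.39), Cntnap5b at −1.03 (−1.96 to −0.09) and Cntn1 at 0.71 (0.58 to 0.85). In those of cluster 6 the intervals of these 3 genes held 0.

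In CBPf/f NPC/OPC-like nuclei all 7 members tested had log2 ratios below 0, with a median of −0.51 beside 0.09 for all 5660 genes tested there. The share of all these genes below 0 is not given. Cntnap5b was lowest at −0.93 (−1.34 to −0.54), then Cntn6 at −0.72 (−1.14 to −0.31), Cntn4 at −0.57 (−0.71 to −0.42), Cntn3 at −0.51 and Cntnap2 at −0.49. Cntn5 was at −0.37, with an interval that held 0. Cntn1 was at −0.21 (−0.28 to −0.14), from 6716 control and 2300 CBPf/f UMIs. Of these nuclei 364 of 1045 in control and 42 of 389 in CBPf/f were in fine cluster 3, and 51 and 84 in fine cluster 8. The Cntn4 ratio was −0.23 (−0.42 to −0.04) in the nuclei of fine cluster 0 and 0.03 (−0.25 to 0.30) in those of fine cluster 3. Cntn1 was at −0.258 (−0.345 to −0.171) in cluster 0 and −0.305 (−0.491 to −0.123) in cluster 3. Cntnap5b was −1.30 (−1.89 to −0.75) in cluster 0 and −0.14 in cluster 3, from 15 CBPf/f UMIs. Over all nuclei of these fine clusters, the CBPf/f Cntn6 level given above was below control in cluster 0 and above it in cluster 3.

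In the oligodendrocyte lineage of CBPf/f, Cntn3 was higher within classes as well as in the whole library. Its log2 ratio was 0.79 (0.61 to 0.97) in committed precursor-like nuclei and 0.41 (0.23 to 0.60) in oligodendrocyte-like nuclei. The share of thinned precursor-like nuclei with a Cntn3 UMI was 15.7% in control, 23.7% in CBPf/f and 12.7% in p300f/f. Within fine clusters the ratio was 0.70 (0.47 to 0.94) in cluster 7 and 0.53 (0.31 to 0.75) in cluster 10, and intervals held 0 in clusters 9 and 15. Cntn1 was lower in committed precursor-like nuclei (−0.36, −0.47 to −0.25), as were Cntn6 (−0.66) and Cntn4 (−0.35). Fine cluster 9 held 226 of the 420 control and 210 of the 609 CBPf/f nuclei of that class, and fine cluster 7 held 167 and 396. Ratios of Cntn1 and Cntn6 within these fine clusters are not given. Cntn4 had opposite directions in the nuclei of that class in cluster 9 (−1.09) and in cluster 7, where it stood at 74.8 CPM against 37.4 in control.

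Cntn1 was higher in 2 other glial classes of CBPf/f. In glial progenitor-like nuclei it stood at 670 CPM in control, 1081 in CBPf/f and 733.5 in p300f/f, a CBPf/f log2 ratio of 0.69 (0.57 to 0.81), and in RGC/PSC-like nuclei at 514.5, 653 and 557 CPM (0.34, 0.21 to 0.47). Fine cluster 2 held 403 of 444 control and 289 of 390 CBPf/f glial progenitor-like nuclei, and fine cluster 5 held 38 and 86. Fine cluster 17, named ependymal-like, held 2 and 15 of them. Cntn1 ratios within these fine clusters are not given for glial progenitor-like nuclei. Cntnap2 was lower in RGC/PSC-like nuclei of both ablated libraries, at 103 CPM in control, 55.0 in CBPf/f and 59.6 in p300f/f. The share of these nuclei with a Cntnap2 UMI, without thinning, was 24.3%, 17.3% and 17.9%. After thinning it was 11.2% (8.5 to 14.4), 7.0% (4.6 to 10.0) and 8.2% (6.4 to 10.3), with overlapping intervals. Both comparisons share the control library. The lower Cntnap2 level was present in the nuclei of this class in fine clusters 4 and 5. CBPf/f ratios were −1.11 and −0.72 and p300f/f ratios −0.78 and −0.96. In microglia-like nuclei Cntnap2 stood at 42.1, 46.0 and 35.5 CPM, from 12, 5 and 5 UMIs.

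In proliferating-like nuclei, 116 in control and 112 in CBPf/f, Cntn4 stood at 539 CPM in control, 277 in CBPf/f and 479 in p300f/f, a CBPf/f log2 ratio of −0.96 (−1.28 to −0.65). Cntn1 in the same nuclei was at 1764, 1783 and 1811 CPM, with intervals that held 0 for both ratios. In neuron-like nuclei of CBPf/f, Cntn5 had a log2 ratio of 0.74 (0.48 to 1.00) and Cntnap5b of 0.79 (0.23 to 1.38), and Cntnap2 was at −0.26 (−0.43 to −0.09). Cntn5 UMIs were spread over 47 of 102 control, 92 of 169 CBPf/f and 41 of 87 p300f/f nuclei, and without the 3 nuclei that held most the level was 449, 745 and 439 CPM.

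Of the 40 pairs of member and class with 100 UMIs in control and p300f/f together, none was past 2-fold, where 0.4% of 35729 gene and class pairs were lower and 0.663% higher. In NPC/OPC-like nuclei, the largest class with 1045 control and 1769 p300f/f nuclei, the median of 8 members was 0.00 and the intervals of Cntn1 (0.04), Cntn3 (0.06) and Cntn4 (0.03) held 0. Cntnap5b (−0.49, −0.70 to −0.28) and Cntn6 (−0.38, −0.61 to −0.15) were lower there, and Cntnap2 was higher (0.31, 0.05 to 0.57). In cluster-5-like nuclei Cntn3 was at 0.74 (0.45 to 1.04) and Cntn4 at 0.41 (0.27 to 0.55), with 460 of the 518 p300f/f nuclei in fine cluster 6. Over the nuclei of cluster 6 these values were 0.39 and 0.32. Cntn4 was also higher in glial progenitor-like nuclei (0.92, 0.28 to 1.60, from 28 control and 77 p300f/f UMIs). Its levels there were low, at 20.9 CPM in control and 39.5 in p300f/f. In microglia-like nuclei Cntn4 stood at 10.5 CPM in control and 71.0 in p300f/f, from 3 and 10 UMIs. Whether the glial progenitor-like difference exceeds background was not tested.

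**Figure D4:**
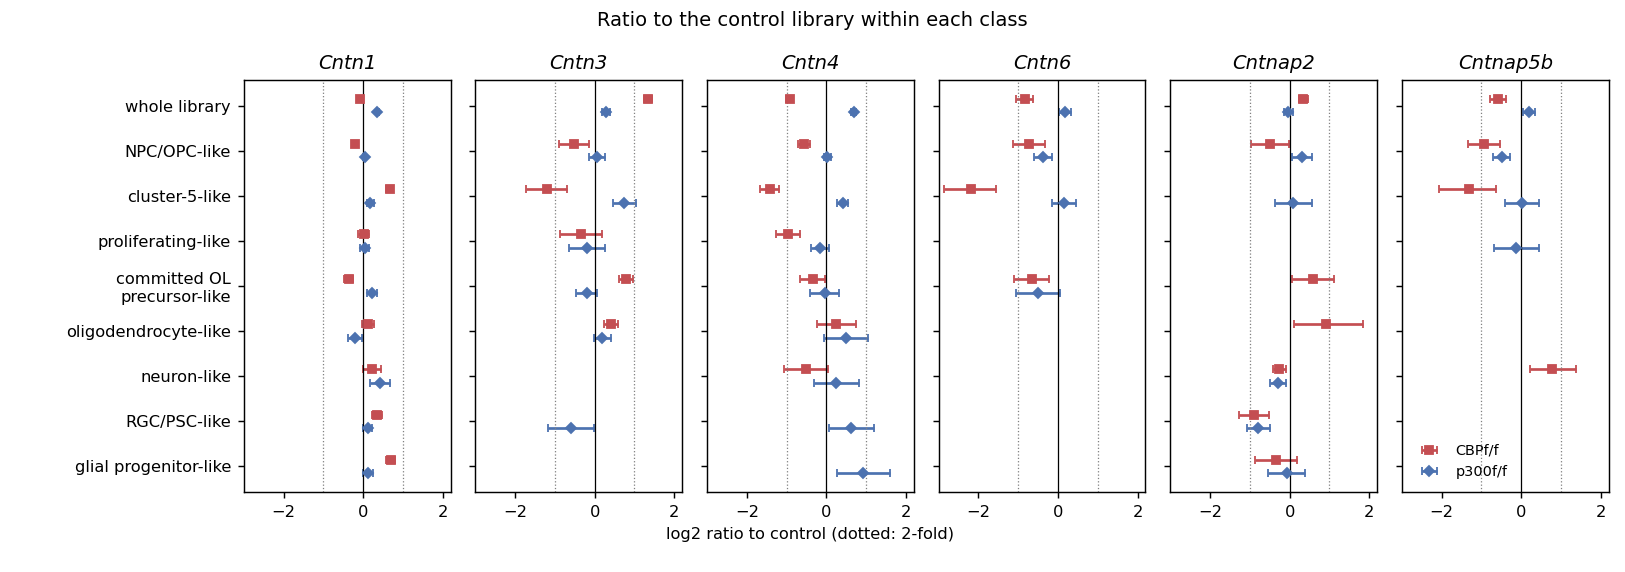
Log2 ratio of the CBPf/f and p300f/f libraries to control for 6 members in whole libraries and in each class with at least 100 UMIs in the libraries compared, with 95% intervals for counting error and dotted lines at 2-fold. CBPf/f Cntn6 in cluster-5-like nuclei lies farthest from 0, at −2.19, and no p300f/f point passes a dotted line.

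Differences in Cntnap5a, a neurexin-like gene known from neurons, rested on few nuclei. In control it stood at 40.4 CPM in glial progenitor-like, 23.8 in RGC/PSC-like and 21.4 in committed precursor-like nuclei, and it was lower in both ablated libraries in each, at 6.11 to 13.3 CPM. These pairs all had fewer than 100 UMIs and are outside the counts above. In control glial progenitor-like nuclei 3 of 444 nuclei held 46 of 54 UMIs, in RGC/PSC-like nuclei 3 of 486 held 32 of 41, and in committed precursor-like nuclei 1 of 420 held 28 of 37. Without the 3 nuclei that held most, control levels were 6.03, 5.26 and 4.07 CPM, against 4.31 to 8.78 CPM in the ablated libraries. Without thinning, the shares of nuclei with a Cntnap5a UMI were 2.25%, 2.26% and 2.38% in the 3 control classes. They were 2.55% to 3.85% in the ablated ones. After thinning, the control shares were 1.61%, 1.06% and 1.21% in the same order. Those of CBPf/f were then 1.04%, 0.52% and 0.83%, and those of p300f/f 1.27%, 1.35% and 1.7%. The intervals of the thinned shares overlapped in each class. In neuron-like nuclei 39 of 60 control UMIs came from 3 nuclei, 1 of them called a doublet. None of the top nuclei was called a doublet in the other 3 control classes.

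**Figure D5:**
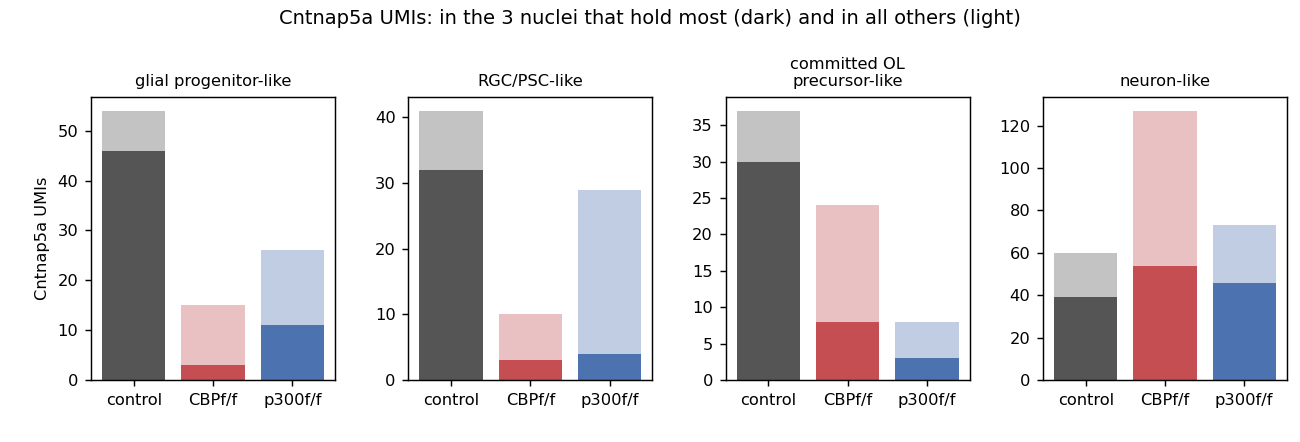
Cntnap5a UMIs in 4 classes of each library, split into those of the 3 nuclei that held most (dark) and those of all other nuclei (light), with a separate count axis for each class. In control glial progenitor-like nuclei the dark part is 46 of 54 UMIs, against 3 of 15 in CBPf/f.

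Genes of the same family and of known partners were followed beside the members. Cntnap1, which joins Cntn1 at the axon and myelin junction, was at 1.90, 1.88 and 2.60 CPM in the 3 libraries, and Cntnap3 at 2.70, 2.51 and 1.38 CPM. Cntnap5c stood in neuron-like nuclei at 90.1, 64.1 and 131 CPM, as its paralogs did. Of 14 partner genes, 1 was past 2-fold higher and none lower in the whole CBPf/f library. Of all 11883 genes tested there, 2.89% were higher and 3.99% lower. The median log2 ratio of the partners was 0.25 beside 0.06 for all genes. The higher partner was Nfasc, which binds the contactins at the paranode, at 720.5 CPM in control, 1624 in CBPf/f and 768 in p300f/f. Oligodendrocyte-like nuclei were 3.30% of control and 16.1% of CBPf/f nuclei, and no class-weighted value is given for Nfasc. In p300f/f 1 of 14 partners was lower and none higher, where 2.12% of 12247 genes were lower and 0.694% higher. The partner median was 0.24 beside −0.03 for all genes. The lower partner was the potassium channel gene Kcna2, at 25.1, 19.1 and 10.6 CPM. Ptprz1 and Ptprg, receptor phosphatases that bind contactins, stood at 3892 and 2360 CPM in control NPC/OPC-like nuclei, the class highest in Cntn1, and their ratios there were within 2-fold in both libraries. In CBPf/f cluster-5-like nuclei 1 of 9 partners tested was past 2-fold lower and none higher. Of 3796 genes tested there, 4.95% were lower and 2.92% higher. The lower partner was Nrcam, another adhesion partner (−1.06, −1.25 to −0.88). The median of the 9 was −0.03 beside 0.18 for all genes. The 2 libraries contributed different nuclei to this class, and Nrcam ratios within its fine clusters are not given.

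Other genes followed the members' levels over the 28 combinations of class and library with at least 20 nuclei. Among 6221 genes searched, the highest Pearson correlations of log2(CPM + 1) were those of Med12l, Nlgn1 and Tdrkh with Cntn1 (0.92, 0.91 and 0.89), and of Nav3, Sgcz and Galnt13 with Cntn4 (0.96, 0.96 and 0.95). Cntn3 was followed most closely by Ugt8a, Tmeff2 and Tspan2 (0.88, 0.88 and 0.88), of which Ugt8a encodes the enzyme that makes the myelin lipid galactosylceramide. For Cntnap2 they were Kat6b, Grm8 and Epha6 (0.92, 0.92 and 0.91), for Cntn5 Ppp1r12b, Bcl11a and Galntl6, for Cntn6 Brinp2, Gucy1b1 and Elfn1, and for Cntnap5b Usp29, Egfem1 and Nrg3. Points of a class share its nuclei type and points of a library its depth, so these values describe a likeness and carry no test.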

How the data were processed

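Nuclei of 3 libraries, each from pooled cultures, were sequenced with the 10x v3 kit. The authors counted UMIs with Cell Ranger 3.1 on GRCm38, introns included, and the submitters' notes also name FastQC 0.11.9 and Seurat 2.3.4. The deposited counts are whole numbers, not normalized, and all nuclei (at least 500 UMIs) were used.

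Members and gene lists were chosen with earlier results of these data known. All members, 3 other family genes, a list of 14 partners and, for members with at least 1000 UMIs, the 3 genes of most similar pattern were named, and leading genes of clusters were named after their values were seen. Clustering used Seurat 5.3.0 (R 4.3.3, Matrix 1.6.5) on 1610 variable genes, chosen as the 1000 with most dispersion in any library less 7 genes of the family, with 20 components, 30 neighbours, resolution 0.6 and seed 1. A cluster took the name of a class when at least 60% of its markers, and at least 3, had a UMI in 10% of nuclei and 2 times the level of other nuclei after adding 1 CPM. Many markers were named by the study from these libraries. Scrublet in scanpy 1.11.5, at 0.8% per 1000 nuclei, called 191, 73 and 173 doublets, which were kept. Clusters 10 and 11 stayed unnamed, and 192 of 311 nuclei of cluster 10 were called doublets.

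UMIs were summed by class and library. Intervals at 95% are exact Poisson for levels, conditional binomial for ratios and Clopper-Pearson for shares, and a count of 0 allows 3 UMIs. Classes needed 20 nuclei in both libraries compared. The calculation was tested on simulated data, with Python 3.11.15, numpy 2.4.6, scipy 1.17.1, pandas 2.3.3 and matplotlib 3.10.9. The alternatives changed resolution, seed, variable genes, naming, doublets, depth of nuclei, averaging, centring, free RNA, UMI minimums and class weights. Fine clusters in place of classes, and ratios over the nuclei that a class and a fine cluster share, were added after the data were seen.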

Additional observations from a re-analysis of the deposited data

Results flagged for a closer look

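Several members had ratios to control whose intervals lay on opposite sides of 0 in 2 classes of the same comparison. The difference between the classes was not tested, since each condition is 1 library. The classes named are those with the lowest and highest ratio of each member. The share of all genes with such a pair of classes is not given. The list therefore does not set the members apart from other genes. Cntn1 in CBPf/f was at a log2 ratio of −0.36 in committed oligodendrocyte precursor-like and 0.69 in glial progenitor-like nuclei, and in p300f/f at −0.21 in oligodendrocyte-like and 0.43 in neuron-like nuclei. Cntn3 in CBPf/f was at −1.20 in cluster-5-like and 0.79 in committed precursor-like nuclei, and in p300f/f at −0.60 in RGC/PSC-like and 0.74 in cluster-5-like nuclei. Cntnap2 in CBPf/f was at −0.90 in RGC/PSC-like and 0.92 in oligodendrocyte-like nuclei, the latter from 14 control UMIs. Its oligodendrocyte-like levels were 16.5 CPM in control and 31.2 in CBPf/f. Both were below its 42.1 and 46.0 CPM in microglia-like nuclei, from 12 and 5 UMIs. In p300f/f Cntnap2 was at −0.78 in RGC/PSC-like and 0.31 in NPC/OPC-like nuclei. Cntnap5b in CBPf/f was at −1.32 in cluster-5-like and 0.79 in neuron-like nuclei. In the cluster-5-like class, 276 of 300 CBPf/f nuclei and 141 of 391 control nuclei were in fine cluster 8. Fine cluster 5 held 86 of 390 CBPf/f and 38 of 444 control glial progenitor-like nuclei. Fine cluster 7 held 396 of 609 CBPf/f and 167 of 420 control committed precursor-like nuclei.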

How the results depend on the processing

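Of 1071 values recomputed under the alternatives, 995 moved by less than their counting interval, 75 moved by more and 1 was counted as reversed. The 95 and 96 values under the UMI minimums of 20 and 1 could not move, because a minimum changes only which pairs are counted. Without astrocyte-like nuclei 16 of 20 values moved by more than their interval. With classes weighted as in control 13 of 20 did so, besides the reversed one. The value counted as reversed was Cntn2 in the whole CBPf/f library, past 2-fold higher before. It was at −0.22 with classes weighted as in control, where 0 members were past 2-fold. Smaller whole-library ratios also changed sign with these weights. In CBPf/f these were Cntnap2 (0.35 to −0.33) and Cntn1 (−0.09 to 0.09), and in p300f/f Cntn6 (0.18 to −0.18) and Cntnap5b (0.20 to −0.23). Without astrocyte-like nuclei 2 members were past 2-fold in CBPf/f, but these were Cntn4 and Cntn6, both lower. For CBPf/f the count of member and class pairs past 2-fold was 7 with classes by marker score (3 lower and 4 higher), 7 with 10% free RNA subtracted, 9 with a minimum of 20 UMIs in each library and 22 with a minimum of 1, against 4. For p300f/f it was 1 with classes by marker score, 1 without doublets, 1 with means of per-nucleus CPM, 3 with free RNA subtracted, and 2 and 17 with those minimums, against 0. Fine clusters in place of classes gave 6 of 48 pairs in CBPf/f (4 lower and 2 higher) and 0 of 53 in p300f/f. Lower were Cntnap5b in cluster 0 (−1.30), Cntn4 in cluster 8 (−1.15), Cntnap2 in cluster 4 (−1.105) and Cntn3 in cluster 6 (−1.02). The interval of Cntn3 there held 0 (−2.49 to 0.14). Higher were Cntn5 in cluster 6 (1.01) and Cntn4 in cluster 7 (1.00). The share of all genes past 2-fold under each of these settings is not given here. The counts therefore do not say whether the members differ from other genes. No paired analysis was possible because each group has 1 library. With 1 library per condition, differences between cultures, infections and libraries cannot be told apart from the conditions, and Cntnap4 and Cntnap5a had too few UMIs for most classes.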
